A study of Rattus norvegicus with 10 samples.

Results

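The genes described here code for the machinery of oxidative phosphorylation, measured in rat brain shortly after an odor was inhaled. Genes were taken by symbol: those that start with Nduf, Uqcr, Cox4 to Cox8 or Atp5, and Sdha, Sdhb, Sdhc, Sdhd, Cyc1 and Cycs. Of 14217 genes named singly on the array, 87 met this rule, on 97 of 31042 probe sets, and the probe set with the highest mean stood for each gene. By the known place of their products, 34 genes belong to complex I, 4 to complex II, 8 to complex III, 17 to complex IV and 15 to complex V. Of the 17, Ndufa4l2 was counted in complex IV as a paralogue of Ndufa4, so its place there is assumed. A further 6 are Ndufaf genes, which code for assembly factors of complex I, and 3 fit none of these classes: the supercomplex factor Cox7a2l, the ATP synthase inhibitor Atp5if1 and the pseudogene Cox6c-ps1. Cycs, Ndufs5, Ndufa10, Cox7a2, Atp5mc1, Atp5mc2 and Uqcrb were named only on probe sets shared with another gene and were not analysed here.

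Complexes I to IV pass electrons to oxygen along the inner mitochondrial membrane. NADH enters at complex I and succinate at complex II, ubiquinol carries the electrons to complex III, and cytochrome c carries them on to complex IV. The protons pumped on the way drive complex V, the ATP synthase, which supplies most of the ATP that neurons spend on ion pumping and synaptic transmission. Mitochondrial DNA codes for a few subunits, and the nucleus for all the rest, so every complex except complex II is built from the products of 2 genomes.

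The 2 groups were 5 rats that breathed DMHF vapor (a furanone with a sweet, caramel-like smell) and 5 control rats that breathed distilled-water vapor. All were male Wistar rats aged 7 weeks with no genetic change stated. Inhalation lasted 5 min, from a flask holding 5 mL of liquid, and the rats were killed after a further 10 min. RNA of the right side of each brain was hybridised to 1 array, so each value mixes all cell types of that side of the brain, and fewer cells of a type cannot be told apart from less RNA per cell.

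The deposited values ran from 5.25 to 14.22, taken as log2, and differed so little between arrays that differences are given in millionths of a log2 unit. Over the 10 arrays, the median probe set had an SD of 2.2 millionths, and array medians differed by up to 15.2 millionths. No fold change of RNA can be read from such a difference, nor can probe sets be compared by it, so each is also given in units of that gene's own SD within groups. Markers of brain cells were present, with mean values of 9.06 to 13.34 for 7 neuronal genes and 10.14 to 13.79 for 5 oligodendrocyte genes. Between groups, 6 of 7 choroid plexus, 4 of 4 ependymal and 7 of 8 pituitary markers were nominally higher in DMHF brains, where 53% of all genes were. Their medians were 0.75, 1.22 and 0.70 SD, with the same counts at a common array median. With 1 array left out the counts were 6, 4 and 5 to 7. Under quantile normalization they were 3 of 4, 1 of 2 and 4 of 7 of the markers that still gave a value. Endothelial markers ran the other way, with 1 of 5 nominally higher and a median of -0.77 SD, and 2 of 6 microglial markers were nominally higher (median -0.20 SD). For astrocytes 4 of 6 were nominally higher (median 0.60 SD), for neurons 4 of 7 (0.23 SD) and for oligodendrocytes 2 of 5 (-0.22 SD). Only 1 of 4 ependymal and 1 of 8 pituitary markers had a mean above the median of all values, 7.24. The part of these cell types in the results below was not tested.

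None of the 87 genes passed an adjusted p of 0.05 between DMHF and control brains in limma's fit over all probe sets. The fit called 0% of the 31042 probe sets. The smallest adjusted p among the 87 genes was 0.931, for Ndufv2. At an unadjusted limma p under 0.05 it named 0 of the 87 genes, against 683 of all 14217 genes (4.8%). The moderated SE of this fit lay well above the own spread of many of these genes, so an exact two-sided permutation test over all assignments of rats to groups, whose smallest p is 0.00794, is given beside it. The exact test put 3 of 87 genes under an unadjusted p of 0.05, against 4.82% of all genes, a share near the background. A limma fit with trended variance also put 3 of 87 there, against 4.83%. No gene had 5 DMHF values all above the 5 control values, where 0.549% of all genes did, or all below, where 0.345% did.

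By the sign of the difference, 50 of the 87 genes were nominally higher in DMHF brains, 36 lower and 1 equal. Over all genes, 53% were nominally higher and 47% lower. With every array shifted to a common median, the count over the 87 genes was 31. The share over all genes was taken on the deposited scale only. Counts at a common median or with an array left out thus have no background here. On the deposited scale, the median difference of the 87 genes was 0.09 SD, against 0.05 SD over all genes, and 79 of the 87 lay within 1 SD of no difference. Complex IV had 12 of 17 genes nominally higher (median 0.17 SD) and complex I 22 of 34 (median 0.15 SD), a count that was 10 at a common array median and 11 without DMHF replicate 4. Complex V had 8 of 15 (median 0.07 SD) and complex III 4 of 8 (median 0.01 SD, 2 of 8 at a common median). Complex II had 2 of 4, with a median of -0.08 SD, and 0 of 4 without DMHF replicate 1 or 1 of 4 without DMHF replicate 4. The Ndufaf assembly factors stood lowest, with 0 of 6 nominally higher (0 of 6 at a common median as well, 1 without control replicate 4) and a median of -0.71 SD. Without DMHF replicate 4, the count over all 87 genes was 31. A common array median also made the differences smaller in SD units for 83 of the 87 genes. Their median size was 0.0179 SD, against 0.385 SD on the deposited scale. Over all genes it was 0.142 SD against 0.448 SD. The shift adds the same array offsets to every gene, and array medians differed by up to 15.2 millionths. The within-group SD then holds these offsets, so a smaller value in SD units need not be a smaller difference in log2 units.

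**Figure D1:**
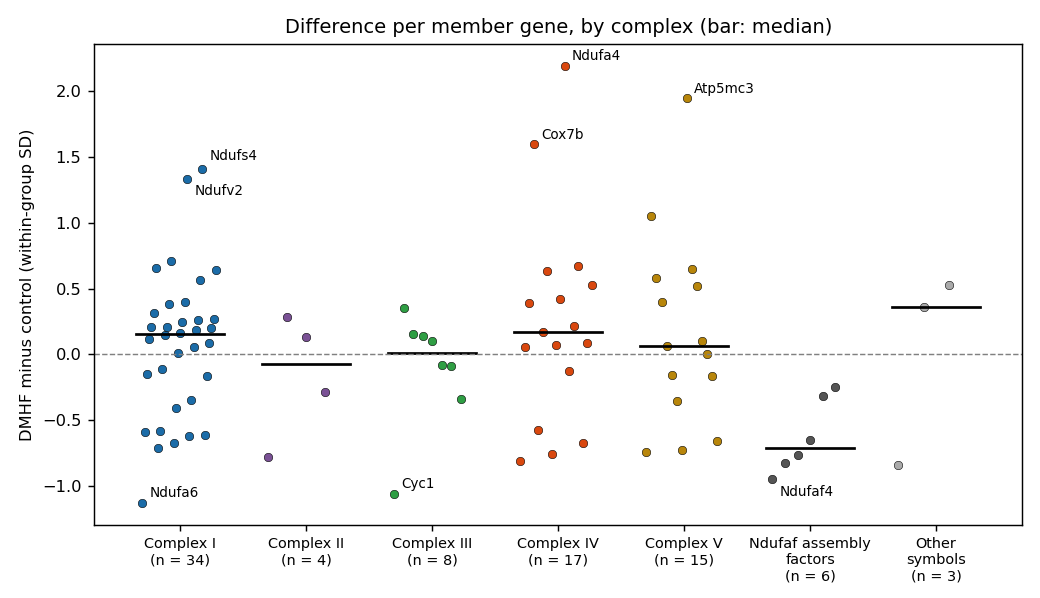
Difference between DMHF and control brains for each of the 87 genes, in units of the gene's within-group SD (vertical axis), by complex (horizontal axis); points are genes, black bars medians, and the dashed line marks no difference. Most points lie within 1 SD of the line, Ndufa4 at 2.19 SD is the highest, and all 6 Ndufaf points lie below it.

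In complex I, the values of single rats overlapped between the groups for all 34 genes. Ndufv2, an iron-sulfur subunit of the arm that oxidises NADH, lay at 2.24, 0.268, 0.688, 0.828 and 0.448 millionths from the control mean in the DMHF rats, against 0.068, -0.482, 0.708, 0.278 and -0.572 in the control rats. The first DMHF rat stood far above all others, while the remaining 4 lay within or just above the control range. The difference was 0.894 ± 0.456 millionths (limma SE, n = 5 and 5; 1.34 SD), with an unadjusted limma p of 0.0819 and an exact permutation p of 0.0635. It was 0.20 SD at a common array median. Ndufa6, an accessory subunit that holds the mitochondrial acyl carrier protein, ran the other way. Its values were -0.096, -0.556, -0.796, -0.546 and -0.866 in DMHF rats, against -0.716, -0.216, -0.326, 0.284 and 0.974 in control rats. All 5 DMHF values were below the control mean, and 3 control rats lay within the range of the DMHF rats. The difference was -0.572 ± 0.372 millionths (-1.13 SD, exact permutation p 0.111), or -0.13 SD at a common array median and 0.63 SD after quantile normalization. Quantile normalization left 8 of the 87 genes with any difference between arrays, so the turn of sign there carries little weight.

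Ndufb2, an accessory subunit of the membrane arm, differed by 0.956 ± 0.899 millionths (0.66 SD), with rats of both groups spread over nearly the same range. The core subunits showed no common direction. Ndufv1, which binds NADH and flavin, differed by 0.56 SD, and Ndufs1, the large iron-sulfur subunit, by -0.67 SD (exact permutation p 0.389 and 0.294). Ndufs4, an accessory subunit whose loss in mice gives a Leigh-like brain disease, had a difference of 1.40 SD, yet in absolute terms this was only 0.047 millionths, and 0.000184 SD at a common array median. Its DMHF values were 0.011, 0.023, 0.093, 0.032 and 0.075, against 0, 0.054, -0.019, -0.022 and -0.014 in control rats. All 5 DMHF values lay above 4 of the 5 control values, and the second control rat lay within the DMHF range. By symbol family, 9 of 11 Ndufb genes were nominally higher in DMHF brains (2 of 11 at a common array median), 6 of 12 Ndufa genes (2 of 12) and 3 of 6 Ndufs genes (2 of 6), and 3 of 3 Ndufv genes under either scaling. Without DMHF replicate 4 the counts were 5 Ndufb, 2 Ndufa, 1 Ndufs and 2 Ndufv genes. A second Ndufv3 probe set read -0.83 SD, against 0.21 SD for the one that stood for the gene.

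The Ndufaf proteins are not part of mature complex I but help to build it. Ndufaf1 serves the membrane arm, Ndufaf3 and Ndufaf4 work together on the ubiquinone-binding part, and Ndufaf5 and Ndufaf7 modify core subunits. Ndufaf4 lay at -0.285, -0.714, -1.13, -1.25 and 0.385 millionths from the control mean in DMHF rats, against 0.251, 0.397, 0.523, -0.252 and -0.918 in control rats. The groups overlapped, with 1 control rat below 3 of the DMHF rats. The difference was -0.599 ± 0.435 millionths (-0.95 SD, exact permutation p 0.167), or -0.16 SD at a common array median. Ndufaf1 differed by -1.42 ± 1.06 millionths (-0.83 SD), with 4 DMHF rats at -1.43 to -2.50 and the fourth DMHF rat at 1.31, against a control range of -1.87 to 2.67. The others differed by -0.76 SD (Ndufaf3), -0.65 SD (Ndufaf7), -0.32 SD (Ndufaf8) and -0.25 SD (Ndufaf5). None of the 6 had an exact permutation p below 0.167. Their mean values on the array were 7.38 to 8.98.

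Assembly factors with other symbols were read from a list of 41, of which 38 were measured. Of these, 12 were nominally higher and 26 lower in DMHF brains (median -0.25 SD), with 10 higher at a common array median, 8 to 18 with 1 array left out, and, under quantile normalization, 5 of the 7 that still gave a value, and none passed the adjusted threshold. Together with the Ndufaf genes, 12 of 44 were nominally higher (27.3%), where 53% of all genes were. Sdhaf2, which attaches flavin to Sdha, had the lowest value in SD units, -1.41 SD or -3.55 ± 1.52 millionths (unadjusted limma p 0.0453, adjusted p 0.896), and -0.90 SD at a common array median. Its DMHF values were 0.091, -5.20, -5.67, -4.79 and -2.15, against 1.11, -0.73, -0.869, 3.68 and -3.19 in control rats. DMHF replicates 2, 3 and 4 lay below all control rats, while the first DMHF rat lay among them. Sdhaf3, a further complex II factor, and Bcs1l, which inserts the Rieske protein into complex III, differed by -1.01 and -0.91 SD.

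Complex II is the only respiratory complex made wholly from nuclear genes, and it is also the succinate dehydrogenase of the tricarboxylic acid cycle. Its 4 genes showed no common direction. Sdha, the flavoprotein, lay at 3.62, -3.21, -3.08, -0.492 and -0.062 millionths from the control mean in DMHF rats, against 2.38, 0.958, -1.01, -0.982 and -1.34 in control rats. The DMHF rats held both the highest value and the 2 lowest. The difference was -0.646 ± 1.38 millionths (-0.28 SD, exact permutation p 0.659). Sdhb, the iron-sulfur subunit, differed by 0.28 SD, and the membrane anchors Sdhc and Sdhd by 0.13 and -0.78 SD. A second Sdhd probe set read 0.54 SD, so the sign for Sdhd depends on the probe set.

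In complex III, Cyc1, the cytochrome c1 subunit, had the largest difference in SD units on the deposited scale. It lay at 0.04, -0.41, -0.33, -0.25 and -0.74 millionths from the control mean in DMHF rats, against -0.07, 0.11, 0.43, -0.54 and 0.07 in control rats. All but 1 of the DMHF rats lay below 4 of the 5 control rats, and 2 control rats lay within the DMHF range. The difference was -0.338 ± 0.287 millionths (-1.06 SD, exact permutation p 0.135), or -0.09 SD at a common array median. The Rieske iron-sulfur protein Uqcrfs1 differed by 0.10 SD (-0.003 SD at a common array median), the core protein Uqcrc1 by 0.36 SD and the small subunit Uqcr11 by -0.34 SD.

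Complex IV, cytochrome c oxidase, contained 2 of the 3 genes under an exact p of 0.05. Ndufa4, first described as a complex I subunit and now assigned to complex IV, lay at 0.202, 0.162, 0.072, 0.262 and 0.192 millionths from the control mean in DMHF rats, against -0.008, 0.132, -0.068, -0.098 and 0.042 in control rats. Every DMHF rat except replicate 3 lay above all control rats. The difference was 0.178 ± 0.218 millionths (2.19 SD), with an exact permutation p of 0.0159, which was 0.915 after adjustment over all probe sets, and an unadjusted limma p of 0.436. At a common array median it was 0.03 SD.

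Cox7b, a small subunit needed for assembly of the enzyme, lay at 0.21, -0.01, 0.10, 0.28 and 0.34 millionths in DMHF rats, against -0.08, 0.09, -0.09, 0.07 and 0.01 in control rats. Here 4 of the 5 DMHF rats lay above all control rats and the second lay within their range. The difference was 0.184 ± 0.224 millionths (1.59 SD, exact permutation p 0.0476, adjusted 0.921). It was 0.03 SD at a common array median.

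Several complex IV subunits exist as tissue isoforms, and no form listed here differed by as much as 1 SD. Cox4i1, the common form of subunit IV (mean 12.54), differed by 0.53 SD, and Cox4i2, a form tied to lung and oxygen sensing (mean 6.64), by 0.09 SD. Cox6a1 (mean 12.30) differed by 0.22 SD, and Cox6a2, the heart and muscle form (mean 7.17), by -1.07 ± 0.821 millionths or -0.81 SD. Cox6b1 (mean 11.92) differed by -0.58 SD and the testis form Cox6b2 (mean 6.63) by 0.67 SD. Cox8a (mean 12.49) differed by 0.07 SD, and the muscle forms Cox8b (mean 6.99) and Cox7a1 (mean 6.98) by 0.63 and -0.12 SD. Among 7 skeletal muscle markers, 5 were nominally higher in DMHF brains, where 53% of all genes were, and 2 lower, with a median of 0.25 SD. Actn3 stood highest at 2.99 SD (exact permutation p 0.00794, adjusted limma p 0.698), or 0.87 SD at a common array median. All 5 of its DMHF values lay above all 5 control values, as in 0.549% of all genes. The part of these markers in the muscle forms was not tested. Cox5b, which binds zinc, differed by 0.05 SD. Cox5a was read from a probe set with a mean of 7.41, because a brighter one also names another gene, and it differed by -4.46 ± 3.99 millionths (-0.67 SD). The supercomplex factor Cox7a2l differed by 0.36 SD.

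Complex V joins a catalytic F1 head to a membrane Fo part that holds the rotating ring of c subunits. Atp5mc3 codes for 1 of the precursors of subunit c and was the remaining gene under an exact p of 0.05. It lay at 0.356, 0.446, 0.226, 0.526 and 0.256 millionths from the control mean in DMHF rats, against -0.114, 0.086, -0.244, -0.084 and 0.356 in control rats. All 5 DMHF rats lay above 4 of the control rats, and the fifth control rat lay within the DMHF range. The difference was 0.362 ± 0.241 millionths (1.94 SD), with an exact permutation p of 0.0317, adjusted 0.915. It was 0.07 SD at a common array median.

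The catalytic subunits did not follow Atp5mc3. The beta subunit gene Atp5f1b lay at 0.132, -0.138, -0.198, 0.192 and -0.098 millionths in DMHF rats, against 0.132, -0.078, 0.002, -0.048 and -0.008 in control rats, a difference of -0.16 SD. The DMHF values enclosed the control values on both sides. The alpha subunit gene Atp5f1a differed by -0.73 SD, which was only -0.028 millionths. Of the 5 F1 genes, 1 was nominally higher in DMHF brains (3 without DMHF replicate 3), and of the 10 Fo and stalk genes 7 were (5 at a common array median). Atp5mpl, a small membrane subunit, differed by -0.74 SD and Atp5me, subunit e at the dimer interface, by -0.66 SD, while a second Atp5me probe set read 0.45 SD. Atp5if1, which blocks ATP hydrolysis by the enzyme, differed by -1.33 ± 0.976 millionths (-0.84 SD, exact permutation p 0.222), and its other 2 probe sets read 0.20 and -0.26 SD. Of the 9 genes with several probe sets, 4 had all of them in 1 direction and 5 did not.

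**Figure D2:**
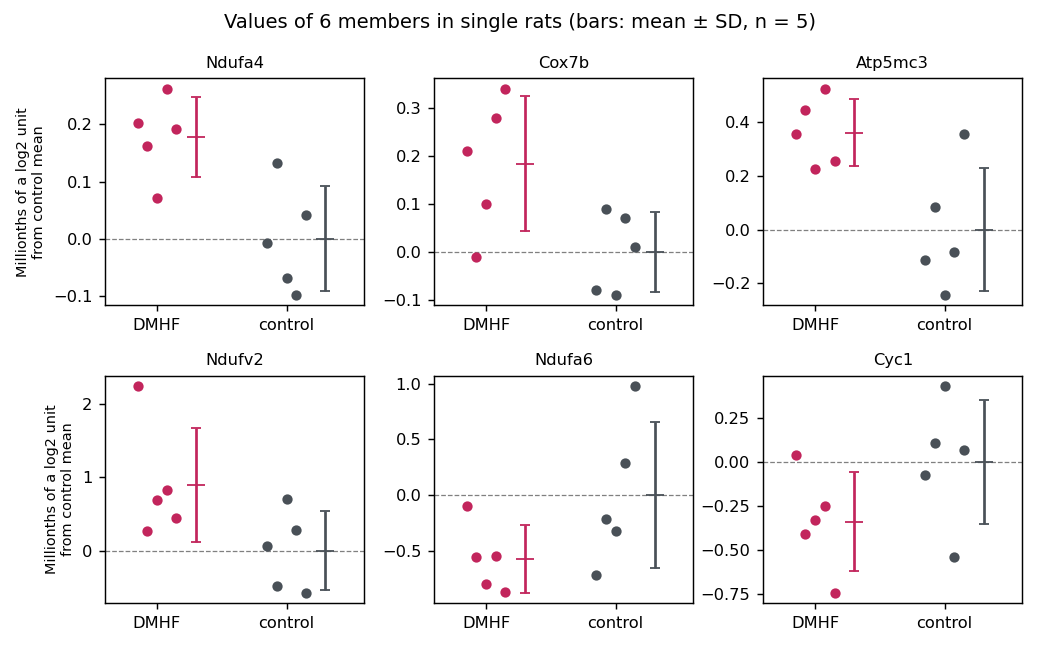
Values of Ndufa4, Cox7b, Atp5mc3, Ndufv2, Ndufa6 and Cyc1 in single rats, in millionths of a log2 unit from the control mean (vertical axis), DMHF left and control right; points are rats and bars the mean ± SD (n = 5 per group). In each panel at least 1 rat of a group lies within the range of the other, as with DMHF replicate 3 for Ndufa4.

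From a mean of 8 upward, values of these genes differed less between rats than those of other genes of similar level. Among genes with a mean of 10 to 11, the median within-group SD was 0.302 millionths over 25 of these genes, against 0.818 over 983 other genes. From 11 to 12 it was 0.217 (28 genes) against 0.511 (363 genes), and from 12 upward 0.124 (13 genes) against 0.216 (127 genes). Below 8, where the muscle and testis isoforms lie, it was 2.56 (10 genes) against 2.41 (7436 genes). Deposited values of 10 or more have a step of 0.01 millionths and lower ones of 0.001, so the spreads stand above the rounding. These ratios are a description of the table, since the sources used here do not give the step that set its scale.

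**Figure D3:**
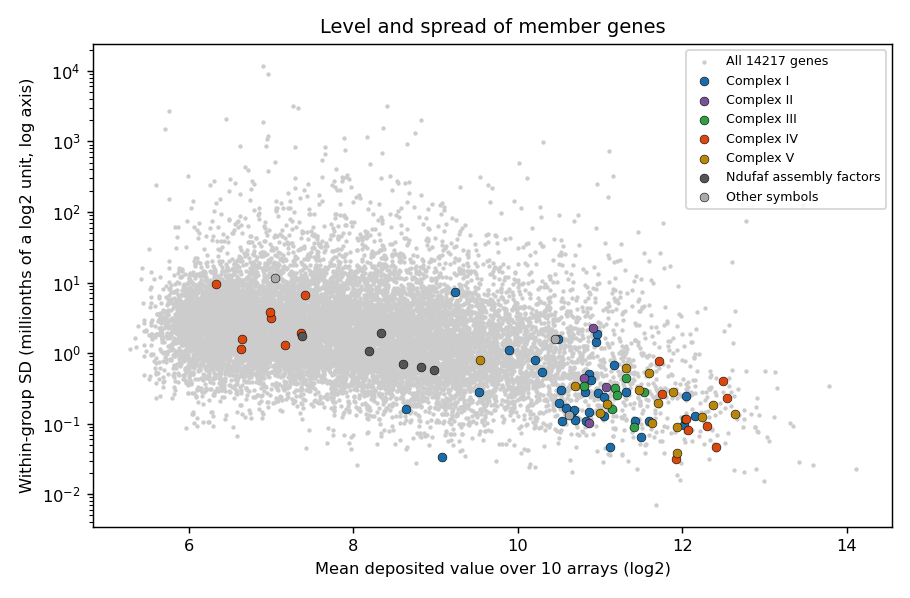
Mean deposited value over 10 arrays (horizontal axis, log2) against within-group SD (vertical axis, millionths of a log2 unit, log scale) of the 87 genes, coloured by complex, beside other genes. Genes of the complexes with a mean of 10 to 11 have a median SD of 0.302 millionths, against 0.818 for other genes there.

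Over all 10 rats, these genes tended to deviate from their group means together, and no correlation was taken within 1 group alone. Deviations from the group means of 2 complex I genes had a mean pairwise Pearson r of 0.259 over 10 rats and 561 pairs, and leaving out 1 array gave 0.218 to 0.291. The same mean was 0.006 over all genes. It was 0.213 over the 66 genes of the complexes with a mean of 10 or more, against 0.0216 over 1473 other genes with such a mean. Of these, 25 of the 66 and 983 of the 1473 lay below 11, so the 2 sets were not matched in level. Complex II had the highest mean, 0.516 over 6 pairs (0.318 to 0.643 with 1 array left out, lowest without DMHF replicate 1), with Sdha and Sdhb at 0.756. Complex V stood at 0.117, complex IV at 0.0378 and complex III at 0.018. The 9 complex IV genes with a mean of 10 or more stood at 0.152. These correlations are a description over the same 10 arrays, and what moves an array as a whole moves all of its genes.

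Other groups of genes covaried as well. The 55 ribosomal protein genes had a mean r of 0.182 among themselves and 0.191 with complex I. Genes of the tricarboxylic acid cycle had 0.0902 and of glycolysis 0.002. Within complex I, 31 of 34 genes correlated positively with the mean of the other complex I genes, with a median r of 0.554. Ndufs6, a zinc-binding subunit (r = 0.883), Ndufa11 (0.872) and Ndufv3 (0.813) were most like that mean. Ndufa12 (-0.0149), Ndufv2 (-0.047) and Ndufs4 (-0.45) had values below 0, of which only that of Ndufs4 was far from it. Ndufs4 and Ndufv2 were also the 2 genes of complex I with the highest differences in SD units on the deposited scale.

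**Figure D4:**
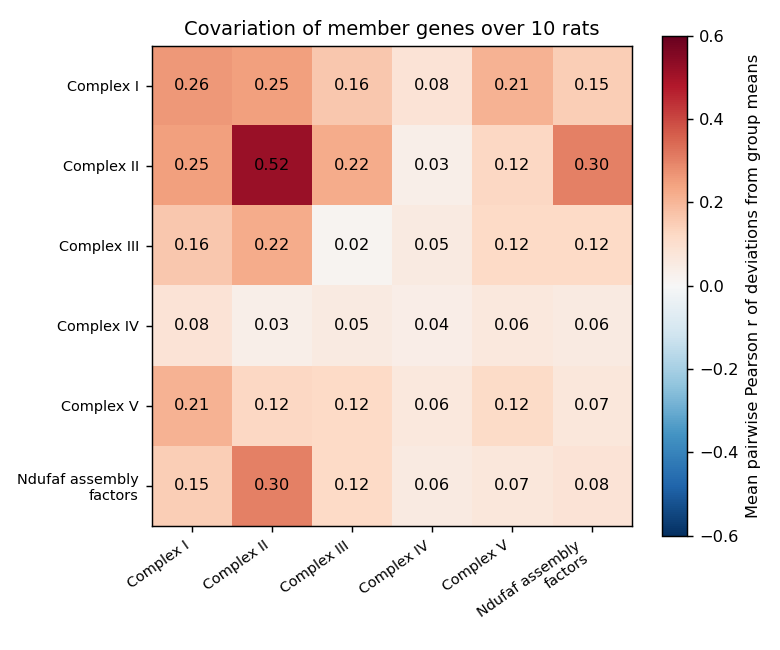
Mean pairwise Pearson r of deviations from group means over 10 rats, within and between complexes I to V and the Ndufaf genes (rows and columns are gene classes, colour is r). The complex II square is the highest at 0.516, complex I stands at 0.259 and complex III at 0.018.

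The same pattern can be read rat by rat from the mean over a complex, in SD units from the control mean. Complex I lay at 0.30, -0.22, -0.58, 0.79 and 0.08 in DMHF rats, against -0.37, -0.13, -0.62, 0.57 and 0.55 in control rats. Both groups held low and high rats, and the spread between rats within a group was wider than the distance between the group means of 0.07 and 0. Complex II lay at 1.24, -1.26, -1.14, 0.63 and -0.29 in DMHF rats, against 0.17, 0.21, -0.36, 0.24 and -0.26 in control rats. Its DMHF rats were spread more widely (SD 1.09) than its control rats (SD 0.285), a difference in spread that was not tested. The Ndufaf genes lay at -0.28, -1.35, -1.06, -0.19 and -0.25 in DMHF rats, against -0.14, 0.34, -0.33, 0.55 and -0.43 in control rats. DMHF replicates 2 and 3 were lowest there and in complex II alike. The fourth DMHF rat was the highest of all 10 in complexes I, III, IV and V. The mean over the 1473 other genes with a mean of 10 or more lay at 0.25, -0.17, -0.08, 0.22 and 0.08 in DMHF rats, against -0.02, 0.02, -0.14, 0.15 and 0 in control rats. Its sign was that of complex I in all DMHF rats, but not in control replicate 2, and it was about 0 in control replicate 5, where complex I was high.

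**Figure D5:**
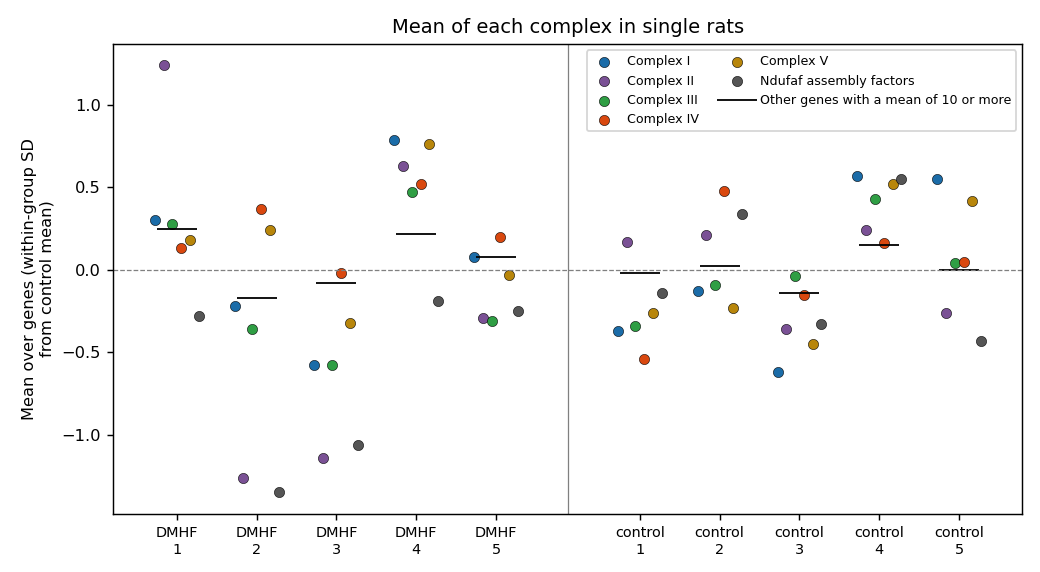
Mean over the genes of each class in single rats (vertical axis, within-group SD units from the control mean), DMHF rats left and control rats right; each point is 1 class in 1 rat, and black lines mark the mean over other genes with a mean of 10 or more. In complex I the 2 groups cover about the same range, -0.58 to 0.79 in DMHF rats and -0.62 to 0.57 in control rats, while complex II spans -1.26 to 1.24 in DMHF rats.

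Many nuclear genes of oxidative phosphorylation are known to share binding sites for NRF1, YY1, ETS factors and the estrogen-related receptor alpha near their start. Promoters of 300 bases that end 50 bases after the start were available from RefSeq (GRCr8) for 78 of the 87 genes, and their letters were searched on both strands. The YY1 letters AAGATGGC stood in 17 of 78 (21.8%), against 4.72% of 11700 array genes. The palindromic NRF1 motif, with any base allowed at position 5, stood in 15 (19.2%) against 8.5%, and its narrower form with A there, which counts among them, in 5 (6.41%) against 1.62%. The ETS letters CCGGAAGT stood in 8 (10.3%) against 6.82%, the ESRRA letters TCAAGGTCA in 2 (2.56%) against 0.214%, and the Sp1 letters GGGCGG in 34 (43.6%) against 57.5%. The YY1 letters hold ATG, and a start codon in that setting cannot be told apart from a site. Both NRF1 and YY1 letters stood in 4 promoters (5.13%), those of Atp5me, Atp5po, Ndufs6 and Uqcrc1, against 0.7% of array genes.

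The following promoters are shown because they carry these letters and stand for the gene most like complex I as a whole and for each of the other complexes, with the NRF1, YY1, ETS and ESRRA letters in capitals, written 5′ to 3′ on the strand of the gene. They lie at chr1:31797150-31797449 (plus strand) for Ndufs6, chr13:86097976-86098275 (minus strand) for Sdhc, chr8:118467973-118468272 (plus strand) for Uqcrc1, chr1:213833574-213833873 (minus strand) for Cox8a, chr11:44657434-44657733 (minus strand) for Atp5po, the peripheral stalk subunit of ATP synthase, and chr3:79220615-79220914 (minus strand) for Atp5mc3.
Ndufs6: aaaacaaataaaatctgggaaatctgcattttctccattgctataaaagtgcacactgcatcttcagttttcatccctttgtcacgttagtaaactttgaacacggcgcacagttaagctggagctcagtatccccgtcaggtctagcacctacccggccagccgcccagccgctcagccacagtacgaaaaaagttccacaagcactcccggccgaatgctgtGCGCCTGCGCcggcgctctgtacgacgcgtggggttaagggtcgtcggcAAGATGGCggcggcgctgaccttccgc
Sdhc: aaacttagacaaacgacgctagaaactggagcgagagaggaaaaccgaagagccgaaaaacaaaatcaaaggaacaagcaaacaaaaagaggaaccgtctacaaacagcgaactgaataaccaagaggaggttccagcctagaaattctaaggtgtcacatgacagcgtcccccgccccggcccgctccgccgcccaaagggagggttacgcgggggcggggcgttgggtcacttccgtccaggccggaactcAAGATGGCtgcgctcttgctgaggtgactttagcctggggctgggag
Uqcrc1: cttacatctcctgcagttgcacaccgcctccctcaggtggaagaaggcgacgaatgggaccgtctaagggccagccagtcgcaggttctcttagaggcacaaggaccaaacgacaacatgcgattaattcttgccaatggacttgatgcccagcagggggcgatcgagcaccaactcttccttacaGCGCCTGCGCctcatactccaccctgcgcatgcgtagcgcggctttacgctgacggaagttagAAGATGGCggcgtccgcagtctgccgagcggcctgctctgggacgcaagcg
Cox8a: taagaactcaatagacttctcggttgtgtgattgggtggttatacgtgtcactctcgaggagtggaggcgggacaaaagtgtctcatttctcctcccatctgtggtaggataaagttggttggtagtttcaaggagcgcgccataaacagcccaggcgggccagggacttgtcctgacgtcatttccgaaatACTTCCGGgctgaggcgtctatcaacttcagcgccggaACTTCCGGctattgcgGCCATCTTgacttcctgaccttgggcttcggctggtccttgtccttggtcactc
Atp5po: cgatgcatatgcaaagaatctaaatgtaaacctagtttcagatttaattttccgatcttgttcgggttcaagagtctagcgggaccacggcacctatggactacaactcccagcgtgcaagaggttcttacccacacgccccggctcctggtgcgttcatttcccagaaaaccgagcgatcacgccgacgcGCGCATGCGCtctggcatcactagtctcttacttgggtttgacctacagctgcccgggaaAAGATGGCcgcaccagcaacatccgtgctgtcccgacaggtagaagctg
Atp5mc3: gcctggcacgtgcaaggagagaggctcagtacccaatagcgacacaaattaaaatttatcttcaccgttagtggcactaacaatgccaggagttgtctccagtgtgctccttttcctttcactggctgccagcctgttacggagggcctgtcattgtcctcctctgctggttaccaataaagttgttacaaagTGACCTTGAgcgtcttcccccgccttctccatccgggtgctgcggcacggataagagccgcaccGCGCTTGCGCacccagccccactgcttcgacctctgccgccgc
In Ndufs6, Uqcrc1 and Atp5po the NRF1 letters stand 26, 64 and 59 bases before the start. The YY1 letters begin after the start in Ndufs6 and Atp5po and 1 base before it in Uqcrc1. Cox8a has 2 copies of the ETS letters and 1 of the YY1 letters, all on the opposite strand. Atp5mc3 carries the ESRRA letters on the opposite strand, 57 bases before the start, and NRF1 letters after it.

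Genes with NRF1 or YY1 letters (28 of 78, or 35.9%, against 12.51% of array genes) had 15 of 28 nominally higher in DMHF brains and a median difference of 0.07 SD. Those with neither had 30 of 50 and a median of 0.12 SD. Genes with and without the letters stood on both sides of no difference, and 53% of all genes were nominally higher.

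The regulators that act on such sites were measured too. Of 19 regulators of mitochondrial biogenesis, 11 (57.9%) were nominally higher in DMHF brains, where 53% of all genes were. The count was 11 at a common array median as well, and none passed the adjusted threshold. Esrra, the receptor that binds the ESRRA letters, lay at 0.314, 0.443, 0.717, 0.415 and 0.898 millionths from the control mean in DMHF rats, against 0.167, 0.130, -0.335, -0.094 and 0.132 in control rats. All 5 DMHF values lay above all 5 control values, as in 0.549% of all genes. The difference was 0.557 ± 0.253 millionths (2.44 SD), with the smallest exact permutation p the design allows, 0.00794, and an adjusted limma p of 0.931. At a common array median it was 0.12 SD. Ppargc1a, the coactivator of Esrra and NRF1, ran the other way, at 0.077, -3.67, -3.62, -2.07 and -0.853 in DMHF rats, against -0.492, -1.65, 0.328, 0.46 and 1.35 in control rats. The groups overlapped, and the difference was -2.03 ± 0.881 millionths (-1.43 SD, unadjusted limma p 0.0474, adjusted p 0.90). It was -0.41 SD at a common array median, and its sign turned under quantile normalization, to 0.63 SD. That step left only 10063 of 31042 probe sets with any difference between arrays. Ndufa6 and Actn3 read the same 0.632 SD there, so few distinct values remained and the turn of sign carries little weight. Tfb1m, a mitochondrial rRNA methyltransferase, differed by -1.01 SD.

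The pathways that feed the chain were read from lists in the same way, and none of their genes passed the adjusted threshold. On the deposited scale, 53% of all genes were nominally higher in DMHF brains. In glycolysis 11 of 17 genes were nominally higher (9 at a common array median). Hk1, the main brain hexokinase, differed by 2.65 ± 1.16 millionths (1.41 SD, exact permutation p 0.0556), Hk2 by 1.24 SD, and Tpi1, triosephosphate isomerase, by 0.508 ± 0.269 millionths (1.85 SD, exact permutation p 0.0317). At a common array median these were 0.48, 0.46 and 0.11 SD. Of 20 genes of the tricarboxylic acid cycle and pyruvate dehydrogenase, 12 were nominally higher (10 at a common array median), with malate dehydrogenase Mdh2 at 1.05 SD, or 0.05 SD at a common array median. Of 17 mitochondrial carriers and channels, 7 were nominally higher (6 at a common array median, 11 without control replicate 5), the citrate carrier Slc25a1 at 0.95 SD and the calcium uniporter Mcu at -0.94 SD (0.82 and -0.60 SD at a common array median). Of 15 genes of ubiquinone and haem synthesis, 6 were nominally higher (5 at a common array median), with Ppox, protoporphyrinogen oxidase, at -1.26 SD (-0.14 SD at a common array median).

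Of the subunits coded by mitochondrial DNA, 2 were named on the array here. COX2 (mean 14.11) lay between 0 and 0.05 millionths from the control mean in DMHF rats, against -0.04 to 0.03 in control rats. The difference was 1.06 SD, or -0.005 SD at a common array median. In absolute terms it was 0.024 millionths, with a within-group SD of 0.0227, where values this high have a step of 0.01 millionths. COX1 (mean 13.47) spread far more, from -308 to 69.9 in DMHF rats and -151 to 105 in control rats, and differed by -0.35 SD. In both groups the first rat was the lowest for COX1.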

How the data were processed

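Total RNA of the right brain of 10 rats, 5 DMHF and 5 control, was measured as biotinylated cRNA on Affymetrix arrays, per the labels' protocols. Titles gave the groups and name biological replicates. The authors deposited 1 table of log2 values (the log base was taken from the range) with 31099 probe sets. R 2.7.2 was used, per the submitters' processing notes, and the sources used here give no background correction, normalization or summary method. The number of arrays limits the precision.

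Affymetrix control probe sets (57) were dropped. Gene names came from the platform annotation: 20826 probe sets named 1 gene, 436 several and 9780 none. DMHF was compared with control by limma 3.58.1 under R 4.3.3, two-sided and without covariates, with Benjamini-Hochberg adjustment over 31042 probe sets and a threshold of 0.05. The prior had 0.841 degrees of freedom and an SD of 1.09 millionths. Exact two-sided permutation tests ran over all assignments of arrays to groups, and other values were computed in Python 3.11.15. The fit was tested on simulated data.

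Members and gene lists were chosen with earlier results of these data known. Named genes are the 3 with the smallest limma p in each complex, core subunits and isoform families by name, and up to 3 of each pathway list by smallest p. Ndufa4, Cox7b, Ndufs4, Ndufs6, Ndufa11, Ndufa12, Ndufv3, Sdhc, Atp5po, Atp5if1, Actn3 and the Ndufaf genes were chosen after their values were seen. A common array median, quantile normalization, array weights, trended variance, brighter probe sets, a replicate block, other choices of probe set and leaving out each array were alternatives. Same-numbered rats deviated together with correlations of 0.0288 to 0.273, 3 of them under 0.1, so the numbers were not taken as pairs. The split at a mean of 10 and the correlations with 1 array left out were added after the data were seen.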

Additional observations from a re-analysis of the deposited data

Results flagged for a closer look

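In 5 genes named above, 1 rat stood apart from its group of 5 by a gap, divided by the group's range, above 0.71. Cox5a had its highest control value in replicate 2 (gap 0.879), Sdhc in the same rat (0.716) and Ndufs4 too (0.711). Among DMHF rats, Ndufaf1 was highest in replicate 4 (0.719) and Ndufv2 in replicate 1 (0.716). Chance flags about 1 in 20 groups, and over all 87 genes 8 of 174 groups passed, or 4.6%.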

How the results depend on the processing

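No gene of the complexes passed the adjusted threshold under any alternative run, and over all probe sets the count was 0 except for 1, Irgq, without DMHF replicate 2. With the replicate number as a block, 0 of the 87 genes passed, as without it. Each block held 1 rat of each group, so this fit leaves every difference of means unchanged. Its count of 50 nominally higher genes was thus fixed in advance. At a common array median, the counts of nominally higher genes were 31 of 87 over all genes, 10 of 34 in complex I and 2 of 8 in complex III. Quantile normalization left 8 of the 87 genes with any difference between arrays, 2 of them higher, including 1 in complex I and 1 in complex IV. Leaving out 1 array gave 31 to 56 over all genes, 11 to 24 in complex I, 0 to 2 in complex II, 3 to 5 in complex III, 8 to 12 in complex IV, 6 to 11 in complex V and 0 to 1 among the Ndufaf genes. The lowest counts over all genes and in complexes I and IV came without DMHF replicate 4, and in complex II without DMHF replicate 1, and the cause was not tested.

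For 28 of 40 named genes of the complexes, no alternative that gave a value turned the sign. Trended variance, the brighter probe sets and the replicate block leave each difference of means unchanged, so they could not turn a sign. Other probe sets entered this count only through the mean over all probe sets of a gene. Not every alternative reached each gene: quantile normalization gave values for 8 of the 40, at no difference for Cox7a1 and Ndufaf7, and the brighter probe sets held 35. In SD units, array weights turned Cox5b (-0.106) and Uqcrfs1 (-0.015), a common array median Cox5b (-0.00729), Cox6a1 (-0.00596), Cox8a (-0.00397) and Uqcrfs1 (-0.00277), and quantile normalization Cox4i2 (-1.03), Cox6a2 (0.40) and Ndufa6 (0.63). Leaving out 1 array turned Atp5f1b (-0.67 to 0.18), Cox4i2 (-0.22 to 0.49), Cox5b (-0.32 to 0.51), Cox6a1 (-0.15 to 0.63), Cox7a1 (-0.62 to 0.33), Cox8a (-0.25 to 0.45), Ndufaf5 (-0.87 to 0.025), Sdhb (-0.0588 to 0.65), Sdhc (-0.40 to 0.45) and Uqcrfs1 (-0.40 to 0.35). Read singly, a second probe set had the other sign for Sdhd (0.54 SD) and for Atp5me (0.45 SD), as had another Atp5if1 probe set (0.20 SD). These genes are among the 28. The limits are the small scale of the deposited values, the 5 rats per group, and array medians that differ by more than most genes of the complexes do.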
